A study of Mus musculus with 18 samples.

Results

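The genes described here are 44 genes of the lysosome: its peptidases, glycosidases, sulfatases and lipid-handling proteins, its membrane proteins, 5 subunits of its proton pump, and the regulators Tfeb and Grn. Members were chosen by symbol, and each was represented by the probe sets that the array annotation assigns to that symbol alone. All 44 of the 44 symbols were measured, among 20416 gene symbols in all, with 6 to 27 probe sets each and 12 at the median. Every member lay above the level at which dim genes were left out, so all 44 were among the 16332 genes tested.

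RNA came from the caudal corpus callosum, a white matter tract, of C57BL/6 mice that all received 0.2% cuprizone (CPZ) in their food, an agent that binds copper and causes the death of oligodendrocytes and loss of myelin. Mice were wild type (WT) or TREM2-/- (KO), that is, with a knockout of the gene of the myeloid cell receptor TREM2, and each was labelled with a stage of 6 or 12 weeks. The 6-week stage had 4 WT and 3 KO arrays and the 12-week stage 5 WT and 6 KO arrays, each of 1 colour. At 12 weeks the deposition numbers form 2 consecutive runs, whose relation to any batch is not stated, and sex was taken from the levels of Xist and 3 Y-linked genes. The first run held female WT and male KO arrays (replicates 1 and 2, and 1 to 3) and the second male WT and female KO arrays, so values within a sex compare different runs and values within a run compare different sexes. The labels can be read with stage as the age of the mice or as the time on CPZ, and no array of mice without CPZ was used here. Whether each array is a separate mouse is not stated, so the spread behind each p-value is that of these samples and may be in part technical. The number of arrays limits the precision. Trem2 itself was lower in every KO array than in every WT array at both stages, with log2 differences of −1.49 ± 0.36 (SE) at 6 weeks and −2.09 ± 0.28 at 12 weeks. The deleted exons are not named in the labels, and a probe set outside them would check nothing.

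Lysosomes are acidic organelles in which proteins, glycans and lipids brought in by endocytosis, phagocytosis and autophagy are broken down. A proton pump in the membrane (the V-ATPase) acidifies the lumen, soluble hydrolases degrade the cargo, and transport proteins carry cholesterol and other products away. The transcription factor TFEB raises the expression of many of these genes through a palindromic site with the core CACGTG. In demyelinating white matter, microglia and macrophages take up myelin debris, which is degraded in their lysosomes, and loss of many of these hydrolases causes lysosomal storage disease of the brain.

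The promoters show short sequences that some of the members share. RefSeq (GRCm38.p6) promoters of 300 bases, from 250 bases before to 50 bases after a transcript's start, were matched for 37 of the 44 members. The letters CACGTG, which read the same on both strands, stood in a promoter of 14 of these 37 genes (37.8%), against 8.09% of all 27025 genes with a promoter. The longer TFEB site GTCACGTG, searched on both strands and itself containing CACGTG, stood in 10 of 37 (27.0%), against 2.55% of all genes. For comparison, the core of the PU.1 site of myeloid genes, GAGGAAG, searched on both strands, stood in 8 of 37 (21.6%), against 15.4%. In a wider list of other lysosomal genes, described further on, 51 genes were matched. There the shares of the 3 motifs, in the same order, were 23.5%, 17.6% and 11.8%. A match is a description of the sequence and not a measured binding site. One match of the longer site per gene is printed below with its flanks, on the strand of the gene, with the site in capitals (as CACGTGAC where it lies on the other strand), because of the 3 motifs it had the highest ratio of its share in the members to that in all genes (in percentage points CACGTG stood farther above).
Ctsa (chr2:164833743-164833782, plus strand): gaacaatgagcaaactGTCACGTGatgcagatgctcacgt
Ctsd (chr7:142387902-142387941, minus strand): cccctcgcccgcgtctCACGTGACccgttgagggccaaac
Glb1 (chr9:114401012-114401051, plus strand): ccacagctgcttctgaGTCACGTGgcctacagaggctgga
Naglu (chr11:101070003-101070042, plus strand): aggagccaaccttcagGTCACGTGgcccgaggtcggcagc
Gla (chrX:134601178-134601217, minus strand): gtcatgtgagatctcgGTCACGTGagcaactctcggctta
Arsa (chr15:89477419-89477458, minus strand): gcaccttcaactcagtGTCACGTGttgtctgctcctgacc
Lamp1 (chr8:13159117-13159156, plus strand): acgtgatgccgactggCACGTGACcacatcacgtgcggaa
Mcoln1 (chr8:3500430-3500469, plus strand): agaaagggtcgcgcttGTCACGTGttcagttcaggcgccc
Cln3 (chr7:126583336-126583375, minus strand): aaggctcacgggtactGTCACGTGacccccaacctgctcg
Atp6v0d1 (chr8:105566046-105566085, minus strand): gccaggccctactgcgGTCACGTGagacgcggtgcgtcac
The site began 5 bases before the start in Atp6v0d1, 14 in Ctsa, 18 in Arsa, 28 in Lamp1, 50 in Glb1, 73 in Mcoln1, 75 in Naglu, 98 in Ctsd, 123 in Cln3 and 196 in Gla. In Cln3 it lies before another annotated start. By share of matched genes, peptidases other than cysteine cathepsins (2 of 3) and membrane proteins (3 of 5) held it most often. Glycosidases held it in 3 of 10. None of the 6 matched cysteine cathepsins or 5 matched lipid-handling genes held it.

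The whole Lamp1 promoter (chr8:13158911-13159210, plus strand) carried 4 copies of CACGTG, in capitals with the 2 further letters of the longer site. The promoter of Grn (chr11:102430257-102430556, plus strand), the member with the largest difference between genotypes, held none of the 3 motifs in this window.
Lamp1: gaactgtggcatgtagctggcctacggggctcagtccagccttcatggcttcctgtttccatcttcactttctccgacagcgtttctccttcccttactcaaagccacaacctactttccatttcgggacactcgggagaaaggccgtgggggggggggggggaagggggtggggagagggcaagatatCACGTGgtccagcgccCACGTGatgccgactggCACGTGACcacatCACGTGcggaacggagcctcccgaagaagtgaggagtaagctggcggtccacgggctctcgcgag
Grn: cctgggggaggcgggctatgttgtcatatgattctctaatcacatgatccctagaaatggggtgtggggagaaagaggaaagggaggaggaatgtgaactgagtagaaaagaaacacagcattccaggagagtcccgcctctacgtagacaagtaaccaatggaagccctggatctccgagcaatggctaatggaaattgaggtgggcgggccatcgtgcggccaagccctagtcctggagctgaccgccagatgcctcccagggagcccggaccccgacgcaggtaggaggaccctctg
At 12 weeks the median log2 difference of KO from WT was 0.30 in the 10 members with GTCACGTG (7 higher in KO) and 0.35 in the 27 without (25 higher). At 6 weeks it was 0.14 with the site (9 of 10 higher) and 0.10 without (14 of 27 higher), so the shares stood in the opposite order at the 2 stages.

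The main comparison asks how lysosomal transcripts stand in CPZ-exposed white matter that lacks TREM2. At 12 weeks 38 of the 44 members were higher in KO than in WT and 6 were lower, with a median log2 difference of 0.33 and a range of −0.34 (Arsa) to 1.07 (Grn). Over all genes tested 52.4% were higher and the median was 0.02. No member passed the test (limma, adjusted p under 0.05 over all 16332 genes). The smallest adjusted p was 0.102, for Arsb, while 0.441% of all genes passed. At an unadjusted p under 0.05 there were 9 members, all higher in KO, against 11.1% of all genes in either direction and 6.87% higher. In 4 members (Arsb, Ctss, Npc2 and Tpp1) every KO array lay above every WT array, which held for 1.70% of all genes. Differences of 0.5 or more above WT were measured in 11 members (25.0%), against 7.29% of all genes.

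At 6 weeks the members were split, with 26 higher and 18 lower in KO, a median of 0.08 and a range of −0.49 (Ctsh) to 0.84 (Ctss and Ctsl). The median over all genes was −0.00, with 49.6% higher. No member passed (smallest adjusted p 0.653), where 0.0429% of all genes did, and 3 members, all cysteine cathepsins and higher in KO, had an unadjusted p under 0.05, against 5.44% of all genes. No member's groups were apart at 6 weeks, while every KO array lay above every WT array in 2.72% of all genes. The median turned to −0.11 without KO replicate 2 and to −0.03 without WT replicate 2, so it had no settled sign at this stage. At both stages together, 24 members (54.5%) were higher in KO at 6 and at 12 weeks and 4 were lower at both, against 28.1% and 26.1% of all genes.

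**Figure D1:**
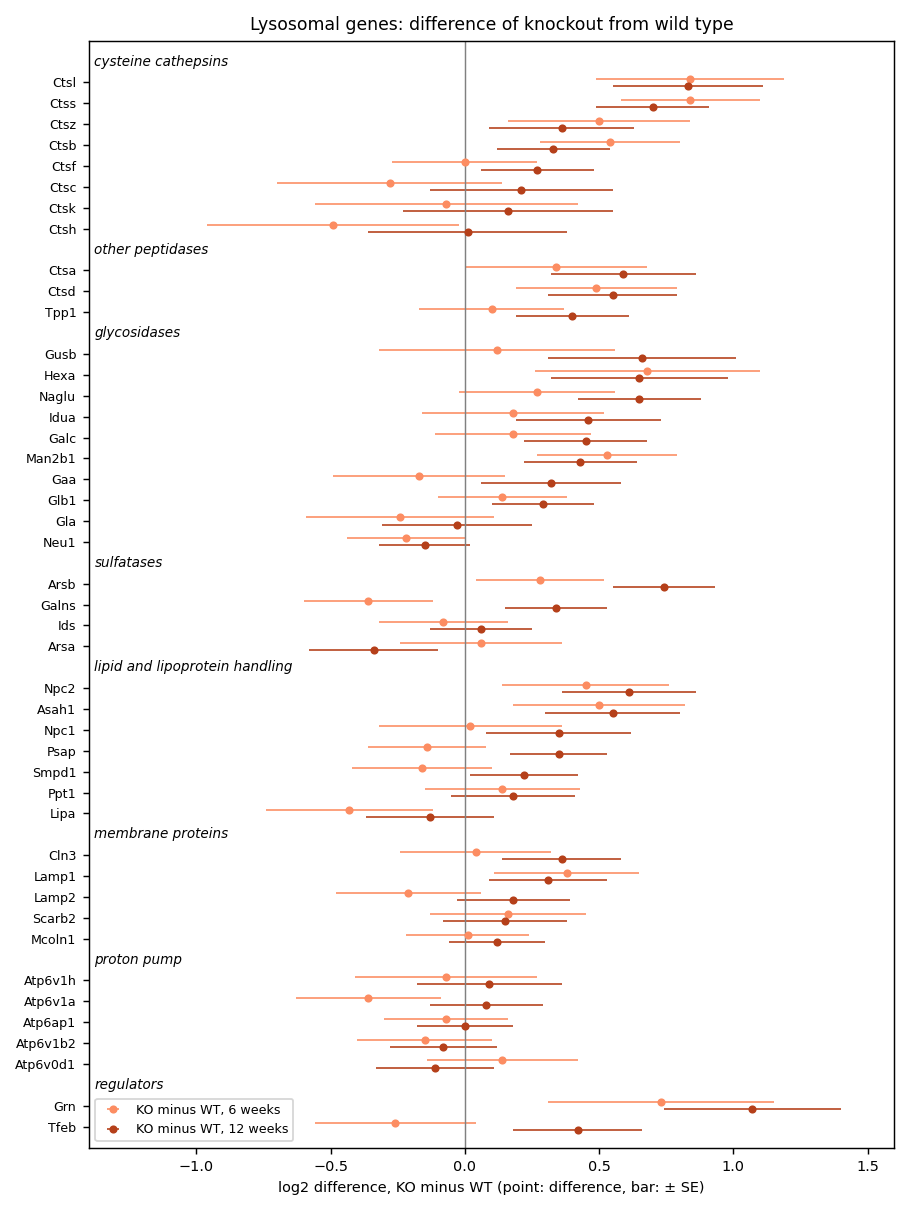
The log2 difference of KO from WT is plotted on the horizontal axis for each of the 44 members, grouped by role, at 6 weeks (light points) and 12 weeks (dark points), with bars of ± 1 SE. At 12 weeks 38 points lie to the right of 0, and the 5 proton pump subunits lie between −0.11 and 0.09.

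Cysteine cathepsins, endosomal and lysosomal proteases of the papain family, had a median log2 difference of 0.25 at 6 weeks and 0.30 at 12 weeks. All 8 were higher in KO at 12 weeks and 4 of 8 at 6 weeks. Cathepsin S (Ctss), a protease of antigen-presenting cells that stays active at neutral pH, stood at 9.67, 9.88, 9.84, 10.14 and 10.31 in the WT arrays of 12 weeks, and the KO arrays ran from 10.45 to 10.78 with a median of 10.69. The 12-week groups did not overlap, and the KO arrays were close to each other (SD 0.12, against 0.26 in WT). At 6 weeks the WT arrays held 10.20, 9.92, 10.90 and 9.46 and the KO arrays 10.67, 11.37 and 10.83. Here WT replicate 3 lay inside the KO range. The difference was 0.70 ± 0.21 (SE) at 12 weeks, 1.63-fold (adjusted p = 0.185), and 0.84 ± 0.26 at 6 weeks (adjusted p = 0.653). In a fit of the 12-week arrays alone Ctss passed (adjusted p = 0.0355). All 9 Ctss probe sets were higher in KO at both stages.

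Cathepsin L (Ctsl), which also processes other cathepsins and many endocytosed proteins, was at 8.27, 8.28, 8.81, 8.28 and 8.54 in WT at 12 weeks and ran from 8.53 to 9.86 in KO, with a median of 9.31. Only the lowest KO array lay within the WT range. WT arrays of 6 weeks held 8.54, 8.19, 9.57 and 8.62 and KO arrays 8.95, 10.42 and 9.36, again with WT replicate 3 among the KO values. Ctsl was higher by 0.83 ± 0.28 at 12 weeks, 1.78-fold (adjusted p = 0.247), and by 0.84 ± 0.35 at 6 weeks (adjusted p = 0.831). The most highly expressed probe set alone gave smaller 12-week differences, 0.26 for Ctss and 0.32 for Ctsl. Ctsz and Ctsb followed at 12 weeks with 0.36 and 0.33, and Ctsc, Ctsk and Ctsh lay at 0.21, 0.16 and 0.01, each less than 1 SE from 0. Ctsc and Ctsh, at −0.28 and −0.49, were on the other side of 0 at 6 weeks.

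**Figure D2:**
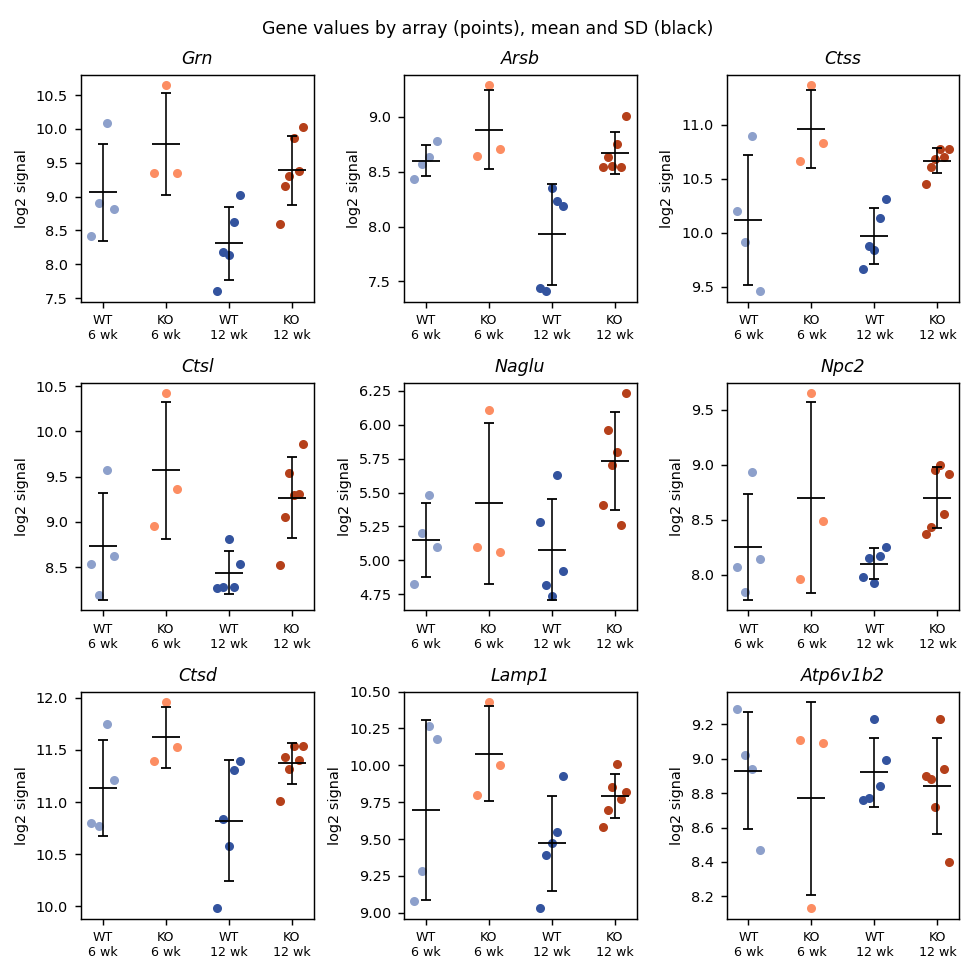
Each panel plots the log2 signal of 1 gene (vertical axis) in every array of the 4 groups as points, with the mean and SD in black; the vertical axes differ between panels and do not start at 0. In Arsb, Ctss and Npc2 the KO arrays of 12 weeks all lie above the WT arrays of 12 weeks, and KO replicate 2 of 6 weeks is the highest KO array of its stage in 8 of the panels and the lowest for Atp6v1b2.

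The other peptidases were higher in KO in 3 of 3 at both stages, with medians of 0.34 and 0.55. Cathepsin D (Ctsd), the main aspartic protease of lysosomes, stood at 9.98, 10.84, 10.58, 11.31 and 11.39 in WT at 12 weeks and at 11.01 to 11.54 in KO, median 11.42. Cathepsin A (Ctsa), a serine carboxypeptidase that also stabilises the sialidase and β-galactosidase, stood at 8.43, 7.92, 8.92, 9.05 and 9.46 in WT and at 8.70 to 9.76 in KO, median 9.36. For both genes the upper WT arrays overlapped the KO range and the 2 lowest of all 11 values were WT. At 6 weeks Ctsd held 10.80, 10.77, 11.75 and 11.21 in WT and 11.39, 11.96 and 11.53 in KO, and Ctsa held 8.89, 8.84, 9.66 and 9.13 in WT and 9.00, 10.11 and 9.29 in KO. The 12-week differences were 0.55 ± 0.24 for Ctsd (1.47-fold, adjusted p = 0.388) and 0.59 ± 0.27 for Ctsa (1.50-fold, adjusted p = 0.435). The 12-week difference of Ctsa was 1.47 within females and −0.11 within males, where sex and deposition run cannot be told apart. Tripeptidyl peptidase 1 (Tpp1) was higher by 0.40 ± 0.21 with no overlap of the 12-week groups (adjusted p = 0.498).

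Glycosidases cleave sugars from glycoproteins, glycolipids and glycosaminoglycans in a set order. Their median difference was 0.16 at 6 weeks (7 of 10 higher in KO) and 0.44 at 12 weeks (8 of 10 higher). Naglu, which removes N-acetylglucosamine from heparan sulfate, stood at 5.28, 4.82, 4.74, 5.63 and 4.92 in WT at 12 weeks and at 5.26 to 6.23 in KO, with a median of 5.75. WT replicates 1 and 4 lay within the KO range and the other 3 below it. The 6-week values were 4.83, 5.20, 5.48 and 5.10 in WT and 5.10, 6.11 and 5.06 in KO, where KO replicate 2 alone was above WT. The differences were 0.65 ± 0.23 at 12 weeks, 1.57-fold (adjusted p = 0.274), and 0.27 ± 0.29 at 6 weeks (adjusted p = 0.999), which became −0.07 without KO replicate 2.

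Man2b1, the lysosomal α-mannosidase, stood at 7.20, 7.12, 7.42, 7.44 and 7.53 in WT and at 7.40 to 8.15 in KO at 12 weeks, with a KO median of 7.72. At 6 weeks it held 7.22, 7.39, 8.19 and 7.37 in WT and 7.72, 8.67 and 7.82 in KO, so that WT replicate 3 was again in the KO range. Its differences of 0.43 ± 0.21 at 12 weeks (adjusted p = 0.463) and 0.53 ± 0.26 at 6 weeks (adjusted p = 0.941) were of like size. Gusb, the β-glucuronidase, and Hexa, a subunit of the β-hexosaminidase that degrades the ganglioside GM2, had 12-week differences as large as that of Naglu, 0.66 and 0.65, with wider errors (SE 0.35 and 0.33). Galc, which degrades the myelin lipid galactosylceramide, was at 0.45 ± 0.23, Idua at 0.46 ± 0.27, Gaa at 0.32 ± 0.26 and Glb1 at 0.29 ± 0.19. Gla and Neu1 were the 2 exceptions, at −0.03 ± 0.28 and −0.15 ± 0.17.

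Sulfatases remove sulfate groups from glycosaminoglycans and sulfatide. Their medians were −0.01 and 0.20, and they moved least together: the mean pairwise correlation of their deviations from group means over the 18 arrays was −0.07, against 0.28 for all 44 members. Arsb, which removes sulfate from dermatan and chondroitin sulfate, had the smallest p of all members. At 12 weeks it stood at 7.44, 7.41, 8.35, 8.23 and 8.19 in WT and at 8.54 to 9.01 in KO, median 8.59. The WT arrays fell into a low pair (replicates 1 and 2) and 3 higher arrays just below the KO range. The 6-week arrays, 8.43, 8.57, 8.63 and 8.78 in WT and 8.64, 9.29 and 8.71 in KO, were all above the WT arrays of 12 weeks. Arsb was higher in KO by 0.74 ± 0.19 at 12 weeks, 1.67-fold with a 95% interval of 0.34 to 1.15 (adjusted p = 0.102), and by 0.28 ± 0.24 at 6 weeks. The low pair was also the whole of the female WT group and the whole of the WT arrays of the first run of deposition numbers. The 12-week difference was 1.34 within females, 0.31 within males, 1.15 within the first run and 0.51 within the second, none of which separates sex from run. With the run as a covariate Arsb passed (adjusted p = 0.0434).

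Galns, which desulfates keratan sulfate, was the member with the smallest p for a stage-dependent difference between genotypes. It stood at 4.73, 5.16, 5.42 and 5.19 in WT and 4.59, 5.19 and 4.51 in KO at 6 weeks, and at 4.68, 4.40, 4.61, 4.63 and 4.99 in WT and 4.36 to 5.37 in KO (median 5.12) at 12 weeks. Groups overlapped at both stages, with KO below WT by −0.36 ± 0.24 at 6 weeks and above it by 0.34 ± 0.19 at 12 weeks. The interaction was 0.70 ± 0.31 (adjusted p = 0.917), and the brightest probe set gave the opposite direction at each stage, 0.31 and −0.38. Arsa, the sulfatase of the myelin lipid sulfatide, had the lowest 12-week difference of all members, −0.34 ± 0.24, and Ids was at 0.06 ± 0.19.

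Lipid-handling genes had a median of 0.02 at 6 weeks (4 of 7 higher in KO) and 0.35 at 12 weeks (6 of 7 higher). Npc2, the soluble protein that hands cholesterol to the membrane transporter Npc1, stood at 7.98, 8.15, 7.92, 8.17 and 8.25 in WT at 12 weeks and at 8.37 to 9.00 in KO, median 8.73. The 12-week groups did not overlap. At 6 weeks it held 8.07, 7.84, 8.93 and 8.14 in WT and 7.96, 9.65 and 8.49 in KO, with 1 high array in each group. Npc2 was higher by 0.61 ± 0.25 at 12 weeks, 1.52-fold (adjusted p = 0.362), and by 0.45 ± 0.31 at 6 weeks, which became −0.02 without KO replicate 2.

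Asah1, the acid ceramidase, stood at 6.36, 6.60, 6.80, 6.45 and 6.94 in WT and at 6.59 to 7.64 in KO at 12 weeks, with a KO median of 7.16. WT arrays of 6 weeks held 6.64, 6.33, 7.57 and 6.81 and KO arrays 6.71, 8.09 and 7.20. The groups overlapped at both stages, and the differences were 0.55 ± 0.25 (1.47-fold, adjusted p = 0.430) at 12 weeks and 0.50 ± 0.32 at 6 weeks. Npc1 and Psap, the precursor of the saposins that present lipids to hydrolases, were both at 0.35, with SEs of 0.27 and 0.18. Smpd1, the acid sphingomyelinase, was at 0.22, Ppt1 at 0.18, and Lipa, the acid lipase that frees cholesterol from its esters, at −0.13 at 12 weeks and −0.43 at 6 weeks.

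Membrane proteins had smaller differences, with medians of 0.04 and 0.18, and 4 of 5 at 6 weeks and 5 of 5 at 12 weeks were higher in KO. Lamp1, an abundant glycoprotein that lines the lysosomal membrane, stood at 9.03, 9.39, 9.47, 9.55 and 9.93 in WT at 12 weeks and at 9.58 to 10.01 in KO, median 9.80. At 6 weeks it held 9.08, 9.28, 10.27 and 10.18 in WT and 9.80, 10.43 and 10.00 in KO. The WT arrays of 6 weeks fell into a low and a high pair with the KO arrays between or above them. Lamp1 differed by 0.31 ± 0.22 at 12 weeks, with a 95% interval of −0.14 to 0.77, and by 0.38 ± 0.27 at 6 weeks.

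Cln3, the membrane protein lost in juvenile Batten disease, stood at 5.76, 5.74, 5.45, 6.05 and 5.25 in WT at 12 weeks and at 5.81 to 6.46 in KO, median 5.95. At 6 weeks it held 5.77, 5.18, 6.28 and 6.29 in WT and 5.72, 6.42 and 5.61 in KO. The 12-week groups overlapped by a single WT array, and the 6-week groups overlapped throughout. Differences were 0.36 ± 0.22 and 0.04 ± 0.28, with 18 and 12 of its 22 probe sets higher in KO at 12 and 6 weeks. Lamp2 (0.18), Scarb2 (0.15), which carries β-glucocerebrosidase to the lysosome, and the cation channel Mcoln1 (0.12) were within 1 SE of 0 at 12 weeks.

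The 5 proton pump subunits among the members had small differences in both directions, with medians of −0.07 at 6 weeks and 0.00 at 12 weeks; 1 and 3 of 5 were higher in KO, and none was higher at both stages. This does not describe the pump as a whole: of 13 other pump genes tested, from the wider list described further on, 6 were higher in KO at 6 weeks and 10 at 12 weeks, with medians of −0.01 and 0.20 and 12-week differences from −2.08 (Atp6v0d2) to 0.51 (Atp6v0e). Atp6v1a and Atp6v1b2 are the catalytic and the regulatory nucleotide-binding subunit of the cytosolic domain. In WT at 12 weeks Atp6v1a stood at 8.20, 8.64, 8.71, 8.55 and 8.42 and in KO at 8.25 to 8.77, median 8.62. Atp6v1b2 stood at 8.76, 8.77, 9.23, 8.84 and 8.99 in WT and at 8.40 to 9.23 in KO, median 8.89. The Atp6v1a groups covered nearly the same range, and the Atp6v1b2 groups shared their upper end while 2 KO arrays lay below every WT array.

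At 6 weeks Atp6v1a held 9.09, 8.95, 8.25 and 8.52 in WT and 8.85, 7.56 and 8.63 in KO, and Atp6v1b2 held 9.29, 9.02, 8.94 and 8.47 in WT and 9.11, 8.13 and 9.09 in KO. KO replicate 2, the highest KO array for the cathepsins, was the lowest of all 7 arrays for both subunits. Atp6v0d1, a subunit of the membrane domain, stood at 7.06, 6.57, 6.99 and 6.92 in WT and 7.30, 6.83 and 6.97 in KO at 6 weeks, and at 6.60, 7.49, 7.99, 7.37 and 7.16 in WT and 6.56 to 7.69 in KO (median 7.26) at 12 weeks. The 12-week differences were 0.08 ± 0.21 for Atp6v1a, −0.08 ± 0.20 for Atp6v1b2 and −0.11 ± 0.22 for Atp6v0d1, with 95% intervals of −0.37 to 0.52, −0.50 to 0.35 and −0.58 to 0.35. Differences as large as that of Ctsl or Arsb lie outside these intervals, but the median of the 44 members, 0.33, lies inside all 3. The intervals thus do not set these subunits apart from the typical member. The sign of the last 2 turned in other settings, at 0.01 for Atp6v1b2 without KO replicate 6 and 0.05 for Atp6v0d1 without WT replicate 3.

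The regulators had the largest 12-week median, 0.75. Grn encodes progranulin, a secreted and lysosomal glycoprotein of microglia and neurons that is needed for hydrolase function. It stood at 7.60, 8.18, 8.14, 8.63 and 9.02 in WT at 12 weeks and at 8.60 to 10.02 in KO, median 9.34. The 2 upper WT arrays lay above the lowest KO array, and the rest were apart. At 6 weeks Grn held 8.41, 8.91, 10.09 and 8.82 in WT and 9.35, 10.65 and 9.35 in KO, with WT replicate 3 between the KO values. Grn was higher by 1.07 ± 0.33 at 12 weeks, 2.11-fold with an interval of 0.39 to 1.76 (adjusted p = 0.201), and by 0.73 ± 0.42 at 6 weeks (adjusted p = 0.964). All 12 Grn probe sets were higher in KO at both stages. Over fits without 1 array the difference ran from 0.90 to 1.25 at 12 weeks and 0.29 to 1.07 at 6 weeks. Over the other settings it ran from 0.55 to 1.15 and from 0.22 to 0.83. The 12-week difference was 1.86 within females and 0.43 within males, again with sex and run not told apart.

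Tfeb, the transcription factor of the lysosomal gene network, stood at 3.93, 4.89, 4.76, 4.68 and 4.24 in WT at 12 weeks and at 4.31 to 5.38 in KO, median 5.03. At 6 weeks it held 4.84, 4.85, 5.64 and 4.93 in WT and 4.66, 5.43 and 4.34 in KO. WT replicate 3 stood well above the other 6-week WT arrays, and the groups overlapped at both stages. Its differences were 0.42 ± 0.24 at 12 weeks (adjusted p = 0.530) and −0.26 ± 0.30 at 6 weeks (adjusted p = 0.999), the latter turning to 0.17 with the mean of the probe sets. With an interval of −0.08 to 0.92 at 12 weeks, the data allow both no difference and a difference close to that of Grn.

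Between stages the members were lower at 12 than at 6 weeks in WT. In WT 36 of 44 were lower, with a median of −0.23, against a median of 0.01 over all genes, of which 51.2% were higher. None passed (smallest adjusted p 0.359, for Arsb), where 0.0184% of all genes did. At an unadjusted p under 0.05 there were 7 members, all lower at 12 weeks (Arsb −0.67, Npc1 −0.79, Lipa −0.66, Psap −0.46, Galns −0.46, Tfeb −0.57 and Lamp2 −0.49), against 8.47% of all genes and 4.53% lower. Arsb alone had every 12-week array below every 6-week array, which held for 1.31% of all genes. The median of the members rested on WT replicate 3 of 6 weeks: without this array it was −0.03. In WT the 9 measured myelin genes were all lower at 12 weeks, with a median of −1.70, and the 7 neuron markers were all higher, with a median of 0.59; the part of either in the stage difference of the members was not tested.

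In KO the members were split between stages, 21 higher and 23 lower at 12 weeks, with a median of −0.08 that turned to 0.12 without KO replicate 2 of 6 weeks. Over all genes 52.2% were higher at 12 weeks in KO, with a median of 0.02. No member had an unadjusted p under 0.05, against 7.51% of all genes, and none passed, against 0.00612%. The interaction, which tests whether the genotype difference changed between stages, was above 0 in 34 of 44 members with a median of 0.22. Over all genes it was above 0 in 52.1%, with a median of 0.02. No gene passed the interaction test (0% of all genes). Galns alone among members had an unadjusted p under 0.05 in it, against 5.21% of all genes. A change of the genotype difference between stages was thus not resolved for any member. By group means, WT at 12 weeks was the lowest of the 4 groups for 30 of 44 members (68.2%), against 25.5% of all genes. These stage and genotype comparisons share arrays and are not independent of each other.

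A score for each array, which averages the 44 members after each gene was centred on its own mean, shows how the arrays compare. It was −0.14, −0.30, 0.44 and 0.08 in WT and −0.17, 0.55 and 0.02 in KO at 6 weeks. At 12 weeks it was −0.45, −0.36, −0.14, −0.13 and 0.01 in WT and ran from −0.13 to 0.22 in KO, with a median of 0.14. The group means were 0.02 ± 0.32 (SD, n = 4), 0.13 ± 0.37 (SD, n = 3), −0.21 ± 0.19 (SD, n = 5) and 0.10 ± 0.14 (SD, n = 6). Groups overlapped at both stages, the 6-week spread was about as large as any difference between means, and the highest arrays of all were WT replicate 3 and KO replicate 2 of 6 weeks.

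The members' values moved with markers of several cell types, among them myeloid cells and astrocytes. In bulk tissue, more cells of a type and more RNA per cell cannot be told apart. Of the 12 myeloid markers (none a member, Laptm5 and Cd68 also lysosomal) 11 were higher in KO at each stage, with medians of 1.01 and 1.01, and 2 passed at 12 weeks. Their mean level ran from 7.55 to 8.05 in WT and from 8.33 to 9.17 in KO at 12 weeks without overlap, and from 7.59 to 9.12 in WT and 8.47 to 9.91 in KO at 6 weeks. Of the 8 astrocyte markers 6 and 7 were higher in KO at 6 and 12 weeks, with medians of 0.53 and 0.46, and their 12-week scores did not overlap either. Other markers were also higher in KO at 12 weeks: 6 of 6 of choroid plexus (median 0.91), 5 of 6 of endothelium (0.50), 7 of 9 of myelin (0.32) and 3 of 4 tested of border macrophages (0.44), the last with scores that did not overlap. The scores of choroid plexus, endothelium and myelin overlapped between genotypes. For choroid plexus only KO replicates 5 and 6 lay above the WT scores of −1.49 to 0.47. No choroid plexus or myelin gene had an unadjusted p under 0.05 at 12 weeks, with median SEs of 0.75 and 0.51. At 6 weeks the medians of choroid plexus, endothelium, myelin and border macrophages were −0.69, 0.17, −0.55 and 0.89. The choroid plexus score of WT replicate 4 was then 3.61, against −0.79 to −0.01 in the other WT arrays. Of the 7 neuron markers 0 and 1 were higher, with medians of −0.25 and −0.08. The part of any of these cell types in the differences of the members was not tested.

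Over the 18 arrays, with each group's mean removed, the member score correlated with the myeloid score at r = 0.81 (Spearman 0.75, and r = 0.60 without the 2 arrays farthest from the median). With the astrocyte score r was 0.84, with the myelin score 0.60 and with the neuron score −0.61. All scores of an array share its RNA, its dissection and its normalization, so these are descriptions. For the cysteine cathepsins r was 0.93 with the myeloid and 0.89 with the astrocyte score, and for the proton pump it was −0.51 with myeloid and 0.72 with neuron markers. Without the 2 arrays farthest from the median of the marker score, the cathepsin values were 0.84 and 0.76. The pump values were then −0.29 and 0.55.

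**Figure D3:**
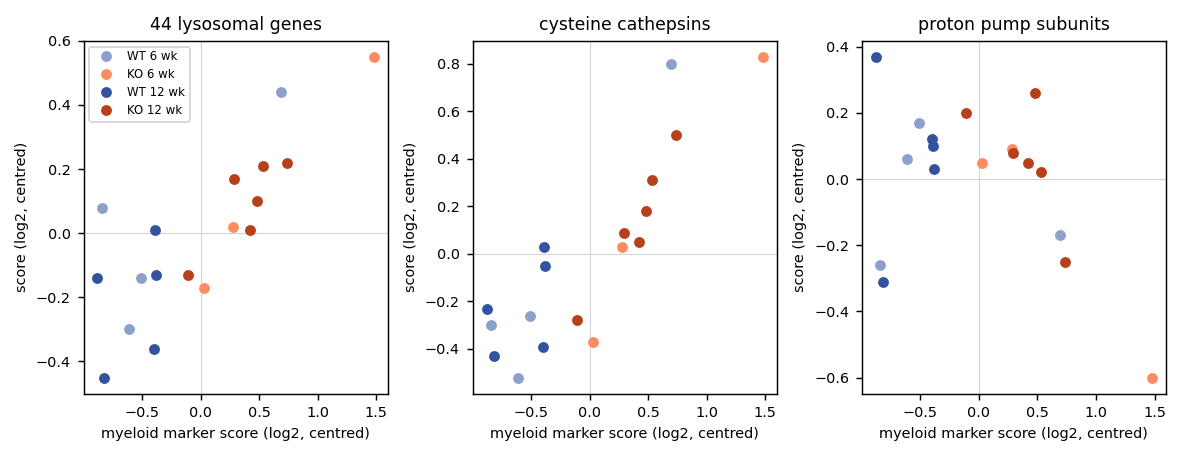
Each point is 1 of the 18 arrays, coloured by group; the horizontal axis is the myeloid marker score and the vertical axis the score of the 44 members, the 8 cysteine cathepsins or the 5 proton pump subunits (log2, centred on each gene's mean). The cathepsin score climbs with the myeloid score, and KO replicate 2 of 6 weeks lies at the far right in all panels, at 0.55 for the members and −0.60 for the pump.

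Gene by gene, 37 of the 44 members correlated positively with the myeloid score and 23 at r above 0.5, and with the astrocyte score these counts were 37 and 26. The shares over all genes were not computed, so whether these counts are particular to the members is not known. The highest with the myeloid score were Ctsz and Npc2 (0.90 each), Ctsb, Ctsh and Ctss (0.89 each), Man2b1 (0.87) and Grn (0.86). Ctsh had this correlation with a genotype difference of −0.49 at 6 weeks and 0.01 at 12 weeks. Atp6v1b2 (0.83), Atp6v1a (0.79), Atp6v1h (0.67) and Ids (0.63) were the 4 members above 0.5 with the neuron score. That score was far lowest in 2 arrays of 6 weeks, KO replicate 2 (−1.85) and WT replicate 4 (−1.46). The r of single genes without these arrays was not computed. Npc1 was nearest to the myelin score (0.87), followed by Lamp2 (0.76) and Scarb2 (0.73). Members of one role correlated with each other to different degrees. The mean pairwise r was 0.75 for the 2 regulators, 0.64 for the other peptidases, 0.60 for cysteine cathepsins and 0.45 for lipid handling. It was 0.44 for membrane proteins, 0.30 for glycosidases, 0.25 for the pump and −0.07 for sulfatases. Over all genes it was 0.00. Array medians were nearly equal, so deviations over all genes largely cancel and this value is no baseline for a list of related genes.

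**Figure D4:**
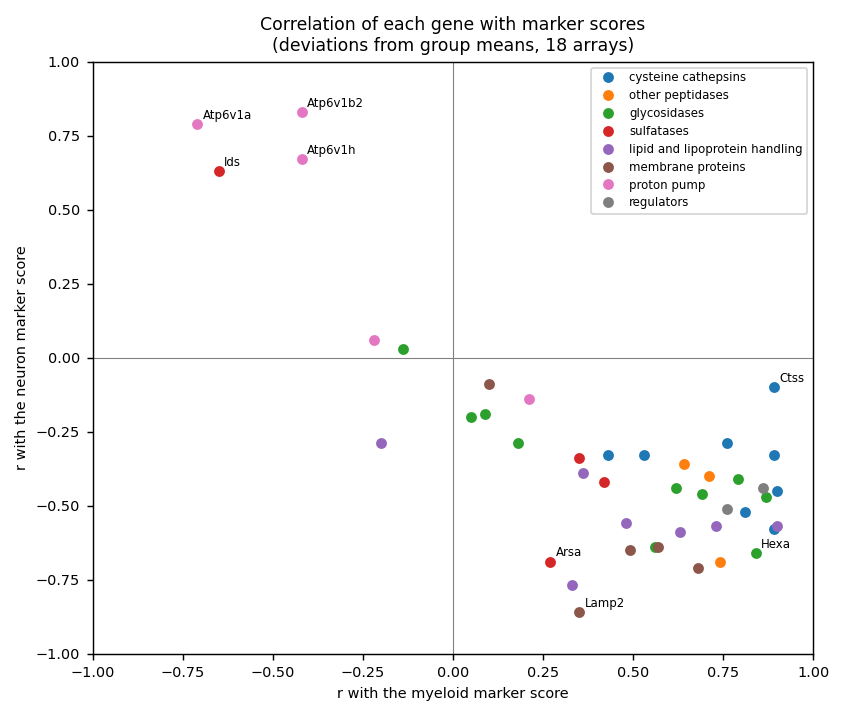
Each point is 1 of the 44 members, coloured by role; the axes give its Pearson r with the myeloid marker score (horizontal) and with the neuron marker score (vertical) over 18 arrays after group means were removed. Most members lie at the lower right, and Atp6v1a, Atp6v1b2, Atp6v1h and Ids lie at the upper left.

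The 12-week difference of the members was also taken within each sex and run. Within females (3 KO, 2 WT) the median of the members was 0.61 with 37 of 44 higher in KO, and within males (3 and 3) it was 0.10 with 30 higher. Within the first run (male KO, female WT) it was 0.37 (41 higher) and within the second (female KO, male WT) 0.34 (35 higher). The within-sex values thus set KO and WT of different runs against each other and the within-run values KO and WT of different sexes. A sex difference in the genotype effect is here the same contrast as a shift between runs, and they cannot be told apart. At 6 weeks the order was the other way: 0.45 within males (2 and 2, 36 higher) and −0.20 within females, where KO is a single array (15 higher). Of all 16332 genes, 8456 were higher within 12-week females and 8261 within 12-week males. Within the first and second run 8519 and 8548 were higher. At 6 weeks 8551 were higher within males and 7869 within females. For myeloid markers the 12-week medians within females and males were 1.15 and 0.91.

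A wider list of 72 other lysosomal genes, of which 66 were measured and 65 tested, was set beside the members. It too was chosen with earlier results of these data known, so it does not show whether the members are typical. Of the 65 tested, 36 (55.4%) were higher at 6 weeks and 47 (72.3%) at 12 weeks in KO, with medians of 0.07 and 0.21. Over all genes 49.6% and 52.4% were higher, with medians of −0.00 and 0.02, so the 6-week share was near that of all genes. None of the list passed at 6 weeks, and 1 rose and 1 fell at 12 weeks. Of all genes 0.0429% and 0.441% passed at these stages. Atp6v0d2, the pump subunit of macrophages and osteoclasts, fell by 2.08 ± 0.40, 4.22-fold (adjusted p = 0.0282). It stood at 5.60, 5.83, 4.82, 5.38 and 6.41 in WT and at 2.85 to 4.18 in KO, where the mean of 3.53 is close to the level under which genes were left out. At 6 weeks Atp6v0d2 was also lower in KO, at −1.71 with an interval of −2.78 to −0.64, without passing. The 6-week groups overlapped, and the KO mean of 3.68 was again close to that level. The member Atp6v0d1, as given above, differed by −0.11 at 12 weeks.

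Laptm5, a lysosomal membrane protein of haematopoietic cells that is also one of the myeloid markers, rose by 1.54 ± 0.30, 2.90-fold (adjusted p = 0.0300). It stood at 8.14, 9.11, 8.64, 8.97 and 9.40 in WT and at 9.84 to 10.81 in KO at 12 weeks. At 6 weeks Laptm5 was also higher in KO, by 1.24 with an interval of 0.44 to 2.04, with overlapping groups and without passing. Neither call held in every setting: with the brightest probe set the adjusted p was 0.161 for Atp6v0d2 and 0.118 for Laptm5. Each also missed the threshold in 8 of the 18 fits without 1 array, at adjusted p of up to 0.0857 and 0.0967, in each case without an array of 12 weeks. Next by p were Atp6v1e1, another pump subunit (0.49 ± 0.16, adjusted p = 0.220, and −0.16 with the brightest probe set), and Cst3, cystatin C, a secreted inhibitor of cysteine cathepsins. Cst3 lay between 11.79 and 11.87 in WT and between 12.06 and 12.37 in KO at 12 weeks, and between 11.48 and 11.72 in WT and 12.03 and 12.52 in KO at 6 weeks. The Cst3 groups did not overlap at either stage, and the differences were 0.40 ± 0.13 (adjusted p = 0.225) and 0.69 ± 0.16 (adjusted p = 0.236). Cst3 passed at both stages, with adjusted p of 0.0278 and 0.00591, where the prior spread was fitted with an intensity trend and a robust estimate.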

How the data were processed

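The authors deposited log2 probe-set values for 18 one-colour arrays, 241576 probe sets with values from 0.732 to 13.674; RNA was amplified with a whole-transcript kit and biotin-labelled, per the labels' protocols. Background correction, normalization and summarisation by the authors were not given in the sources used here. The deposited values had array medians between 5.26 and 5.41 and were used unchanged. Probe sets with 1 annotated symbol (212097) were kept, 2668 old symbols were updated through RefSeq (GRCm38.p6), and a gene's value is the median of its probe sets. The 20% of genes with the lowest mean (log2 of 3.41 or less) were left out. One limma model (3.58.1, R 4.3.3) with 4 group means was fitted to all 18 arrays (14 residual and 5.6 prior degrees of freedom), and 5 contrasts were tested two-sided with Benjamini-Hochberg adjustment over 16332 genes at a threshold of 0.05. Passing means this test. Fold sizes are on the deposited log2 scale, and 95% intervals are unadjusted.

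The members and lists were chosen with earlier results of these data known, so no score or list has a p. Members given by array are, per role, the 2 with the smallest p at 12 weeks and the 1 at 6 weeks (17 in all); of the other list, genes that passed and the 4 with the smallest 12-week p. Further members are given as examples. The steps were tested on simulated data. Same-numbered arrays were not fitted as pairs in the main model. Correlations within the 8 pairs ran from −0.36 to 0.24, and 1 of 8 was over 0.1 at 2 decimals. The 12-week pairs 1, 4 and 5 stood at 0.10. This does not show that pairing is absent. Alternatives covered the filter, normalization, gene value, prior, array weights, samples fitted, replicate block, sex, run, tissue scores, threshold and each array; values within sex and run were added after seeing the data. Tables were made in Python (3.11.15) with pandas 2.3.3 and numpy 2.4.6, and plots with matplotlib 3.10.9.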

Additional observations from a re-analysis of the deposited data

Results flagged for a closer look

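Among 78 sets of 4 to 6 values examined for an array far from the others of its group, 2 were found, where chance gives about 1 in 20. Tfeb in WT at 6 weeks had its highest value in replicate 3, at 5.64 against 4.93 in the next array, a gap that was 0.89 of the group's range. The score of the 2 regulators in WT at 12 weeks had its lowest value in replicate 1, at −1.18 against −0.50, a gap of 0.77 of the range. The cause of either was not tested.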

How the results depend on the processing

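No member passed in any of the 5 contrasts in most settings; the exceptions were at 12 weeks, where 1 member passed in a fit of the compared groups alone (Ctss, adjusted p = 0.0355), with the deposition run as a covariate (Arsb, 0.0434) and with sex and run (Arsb, 0.0408). The median of the members at 12 weeks kept its sign in all settings run, with 0.25 to 0.37 when each array was left out, 0.10 within males and 0.61 within females, where sex and run cannot be told apart. At 6 weeks leaving out each array gave −0.11 to 0.18, and the median was −0.20 within females and 0.45 within males. The stage medians ran from −0.37 to −0.03 in WT and −0.25 to 0.12 in KO, and that of the interaction from 0.06 to 0.44, over fits without 1 array. The number of all genes passing at 12 weeks, 72 in the main fit, ran from 14 to 129 when each array was left out and from 20 to 234 in other settings. With the replicate block 0 members passed in each contrast and the medians were 0.13, 0.31, −0.26, −0.15 and 0.15 (in the order used above); it moved the calls of Atp6v0d2 (adjusted p = 0.105) and Laptm5 (0.0623), and in 5 of 8 same-numbered pairs the WT array correlated best with the KO array of its own number. A fit of the compared groups alone was not possible for the interaction.

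The direction of 28 values of single genes turned, none of them past the threshold. With the brightest probe set these were, at 6 weeks, Ctsa −0.07, Galns 0.31, Naglu −0.01, Tfeb 0.18, Atp6v0d1 −0.06 and Atp6v1e1 −0.20, and at 12 weeks Galns −0.38 and Atp6v1e1 −0.16. The mean of the probe sets gave Tfeb 0.17 and Atp6v1e1 −0.04 at 6 weeks and Atp6v0d1 0.00 at 12 weeks. Without both 6-week arrays of lowest weight (WT replicate 4, KO replicate 2) Naglu was −0.09, Npc2 −0.06, Cln3 −0.08 and Atp6v1b2 0.02. Cln3 was −0.03 with array weights and −0.07 with tissue scores, and Atp6v1b2 was 0.01 at 12 weeks with the replicate block. Leaving out 1 array at 6 weeks turned Naglu (−0.07), Npc2 (−0.02), Cln3 (−0.21), Atp6v1a (0.04) and Atp6v1b2 (0.17) without KO replicate 2, and Cln3 (−0.19) without WT replicate 2. The other ends of their ranges over fits without 1 array were 0.45, 0.83, 0.19, −0.61 and −0.32. At 12 weeks it turned Atp6v0d1 (0.05 without WT replicate 3, 0.01 without KO replicate 4) and Atp6v1b2 (0.00 and 0.01 without WT replicate 3 and KO replicate 6), with other ends of −0.29 and −0.15. The cause was not tested.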
